A study of Mus musculus with 16 samples.

Results

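Interferon-stimulated genes are the genes that cells switch on after an interferon signal. Here 65 genes with symbols of this class were examined for nearby peaks of 2 transcription factors, Bcl11a and Spi1, in mouse MPP3 cells. They were chosen by symbol from 21883 protein-coding genes on assembled mouse chromosomes, as the genes whose symbols begin with Ifi, Oas, Gbp, Iigp, Irgm or Parp9 together with Isg15, Isg20, Rsad2, Usp18, Bst2, Ddx58 and Eif2ak2. The rule uses symbols and no binding value, but it was set with earlier results of these data known. Induction by interferon was not measured, so the name of the set rests on symbols alone. The symbols Mx1 and Mx2 were also sought, but the annotation lists both as transcribed pseudogenes, so they are not among the 65.

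MPP3 is a myeloid-biased multipotent progenitor, here sorted from bone marrow of KO-iMOS and WT-iMOS mice to study what Bcl11a does in these cells. CUT&Tag, in which an antibody brings a transposase to the DNA near a bound protein, was run for Bcl11a in WT-iMOS T1 and WT-iMOS T2 with 3 libraries each, for Spi1 in WT-iMOS T1 and WT-iMOS T2 with 3 libraries each, and for Spi1 in KO-iMOS T1 and KO-iMOS T2 with 2 libraries each. All titles carry the tag 3m. The labels explain neither iMOS, T1, T2 nor 3m, name no deleted gene or allele, and do not say whether replicates were separate mice, so p-values measure only the spread between these samples.

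Type I and type II interferons bind their receptors and act through Jak kinases and Stat proteins. Activated Stat proteins bind the interferon-stimulated response element, together with Irf9, and the gamma-activated site in gene promoters. Spi1 (PU.1) is an ETS factor of myeloid and lymphoid cells that can bind DNA next to interferon regulatory factors, and Bcl11a is a zinc finger protein best known for silencing fetal globin. The products of interferon-stimulated genes sense foreign nucleic acid, restrict viruses and attack vacuoles that hold microbes.

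The peak lists held 2719 to 20241 peaks, with 2719 to 7382 for Bcl11a, 5068 to 12261 for Spi1 in WT-iMOS and 6372 to 20241 for Spi1 in KO-iMOS. Read depth is unknown because the lists hold no read counts. The number of these genes with a peak followed the length of the list across the 16 libraries, with Pearson's r = 0.968 as a description, since both come from the same list. Names inside the KO-iMOS peak files begin with PWT for T1 and PKO for T2, while those of the WT-iMOS Spi1 files begin with PWG and PMG, and groups here follow the sample labels. Of 8 markers of myeloid progenitors, 8 had a peak within 10 kb in some library, and Flt3, Fcgr3 and Spi1 had one in at least 5 of 6 Bcl11a libraries and in every Spi1 library. The rest had one in fewer. In Bcl11a, WT-iMOS Spi1 and KO-iMOS Spi1 libraries the numbers were 2, 2 and 0 for Kit and 0, 1 and 4 for Cd34. They were 0, 3 and 2 for Cd48, 0, 2 and 3 for Mpo, and 1, 6 and 3 for Cebpa. Among markers of other cells, the T cell genes Cd3e, Cd4 and Cd8a, the erythroid gene Hba-a1 and the stromal gene Col1a1 had none in any list. Others of the same lists did: Ms4a1 (B cell) and Lepr (stroma) had one in all 12 WT-iMOS libraries and in 2 and 1 of 4 KO-iMOS libraries. Cd3d (T cell) had one in 3 Bcl11a, 2 WT-iMOS Spi1 and 3 KO-iMOS Spi1 libraries, Klf1 (erythroid) in 2, 4 and 4, and Pdgfrb (stroma) in 1, 2 and 2. A peak near a marker is not a measure of its expression, and the part of such cells in the results was not tested.

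Promoter windows of 250 bases before to 50 bases after a gene start were available from RefSeq (GRCm38.p6, the assembly that mm10 names) for 50 of the 65 genes. The response element core, which is GAAA, any 2 bases and GAAA again on either strand, occurred in the windows of 32 of the 50 genes (64%), compared with 3.94% of windows over 17491 protein-coding genes. Stretches of 60 bases upstream of the start are shown for 7 of these genes, 5′ to 3′ on the gene's strand, with the response element core in capitals. The first 3 genes had a Spi1 peak over the promoter window in at least 2 of 4 KO-iMOS libraries, and the other 4 had no peak of either factor within 10 kb in any of the 16 lists.
Gbp7: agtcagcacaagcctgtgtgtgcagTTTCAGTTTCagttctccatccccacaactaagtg
Bst2: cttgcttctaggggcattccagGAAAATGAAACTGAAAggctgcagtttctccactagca
Ifit3b: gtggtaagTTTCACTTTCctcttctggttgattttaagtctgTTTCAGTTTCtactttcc
Isg15: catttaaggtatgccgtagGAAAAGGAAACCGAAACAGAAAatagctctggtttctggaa
Ifit1: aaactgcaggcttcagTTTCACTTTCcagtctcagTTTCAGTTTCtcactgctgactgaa
Ifit3: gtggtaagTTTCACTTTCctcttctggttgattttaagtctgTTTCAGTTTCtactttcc
Oas1a: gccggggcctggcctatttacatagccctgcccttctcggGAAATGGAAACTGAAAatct

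These stretches lie at chr3:142530258-142530317 (Gbp7, plus strand), chr8:71537565-71537624 (Bst2, minus), chr19:34607761-34607820 (Ifit3b, plus), chr4:156200856-156200915 (Isg15, minus), chr19:34640769-34640828 (Ifit1, plus), chr19:34583365-34583424 (Ifit3, plus) and chr5:120907526-120907585 (Oas1a, minus). The stretches of Ifit3b and Ifit3 are identical, and the 2 promoter windows share an unbroken run of 169 bases. The sources used here do not give how reads that fit both copies were placed, so a peak at one of these genes cannot be assigned to it with certainty. Ifi206 and Ifi208 share a run of 182 bases in the same way, and Ifi206 and Ifi213 share 135 bases.

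Each gene was scored for a peak anywhere in its body or within 10 kb on either side, and called occupied in a group of libraries when at least 2 of them had one. Most of the set was reached by Spi1 in some library: 46 of the 65 genes had a peak of either factor in at least 1 list, and 19 had none. Bcl11a occupied 11 genes (16.9%) in WT-iMOS, against 25.4% of all genes. Spi1 occupied 25 (38.5%) in WT-iMOS, against 33.5% of all genes, and 34 (52.3%) in KO-iMOS, against 49.8%. At the rates of genes of the same locus length, taken decile by decile, 15.3, 20.2 and 32.3 of 65 genes would be occupied. With gene bodies alone, 3, 8 and 17 genes were occupied, beside length-matched numbers of 8.72, 11.6 and 22.3. The WT-iMOS Spi1 number was thus above its length-matched rate with the 10 kb flanks and below it without them. These comparisons describe the set, count neighbours that share a peak as separate genes, and carry no test.

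The number of genes with a peak was 5, 9 and 13 in the Bcl11a T1 libraries and 5, 4 and 4 in the T2 libraries. For Spi1 in WT-iMOS it was 26, 18 and 17 at T1 and 26, 13 and 10 at T2. In KO-iMOS it was 39 and 27 at T1 and 30 and 16 at T2. Each Bcl11a library was below its own length-matched share, the mean difference being −5.17 ± 3.54 percentage points (SD, n = 6), and 5 of 6 WT-iMOS Spi1 libraries were above theirs, with a mean excess of 4.93 ± 3.64 points (SD, n = 6). The KO-iMOS libraries lay on both sides, at 0.570 ± 2.69 points (SD, n = 4). Counting peaks instead of genes gave the same order, with 0.619 ± 0.0815 times the length-matched number of peaks per locus for Bcl11a (SD, n = 6), 1.16 ± 0.0488 times for Spi1 in WT-iMOS (SD, n = 6) and 0.995 ± 0.126 times in KO-iMOS (SD, n = 4). All 6 Bcl11a values were below 1 and all 6 WT-iMOS Spi1 values above it.

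**Figure D1:**
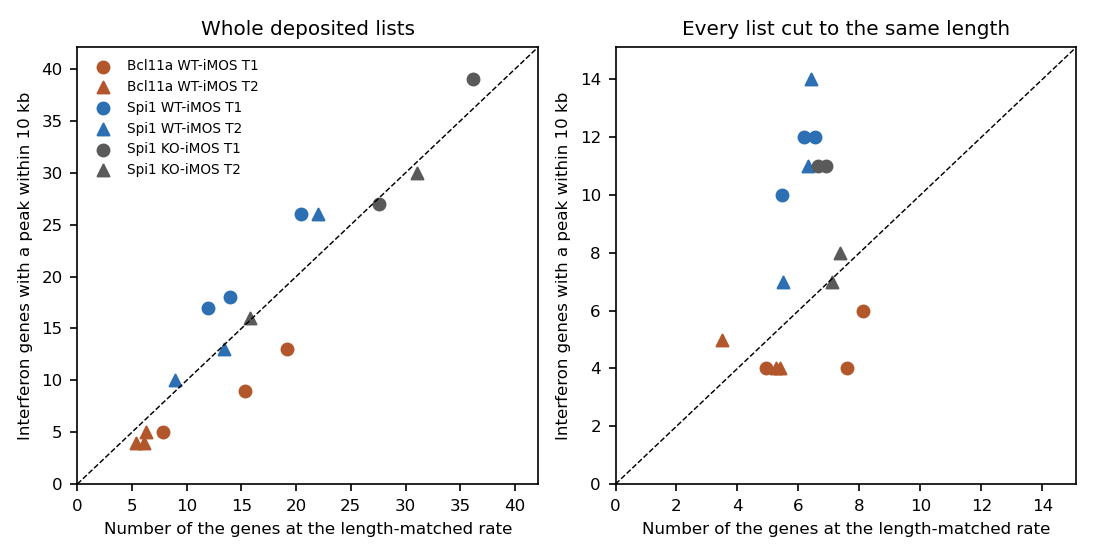
Each point is 1 of 16 libraries: the vertical axis gives how many of the 65 interferon-stimulated genes had a peak within 10 kb, and the horizontal axis gives the number at the rate of genes of the same locus length, with equality as the dashed line. On whole lists (left) the Bcl11a points lie below the line, with 4 to 13 genes; with every list limited to its 2605 strongest peaks (right) the WT-iMOS Spi1 points lie above it, with 7 to 14 genes.

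List length was also made equal by keeping the 2605 peaks with the highest deposited −log10 p in each list. Bcl11a peaks then lay at 4 to 6 of the 65 genes per library (median 4), WT-iMOS Spi1 peaks at 7 to 14 (median 11.5) and KO-iMOS Spi1 peaks at 7 to 11 (median 9.5). The occupied genes numbered 7 for Bcl11a (14.5% of all genes were occupied at this length), 14 for WT-iMOS Spi1 (12.9%) and 10 for KO-iMOS Spi1 (12.2%), beside length-matched numbers of 8.57, 7.75 and 7.58. All 6 WT-iMOS Spi1 libraries, 3 of 4 KO-iMOS libraries and 1 of 6 Bcl11a libraries were above their length-matched number. These counts are of genes, and neighbours such as Gbp4 with Gbp9 and Oasl1 with Oasl2 share a region. The counted genes are therefore not all separate sites. The genes most often reached among these strongest peaks were Gbp4, Gbp9 and Ifitm5, each in 15 of 16 libraries.

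Because the families lie in clusters, neighbouring genes share peaks. The 65 loci merged into 39 stretches of genome, and the peaks at them into 70 distinct regions, 14 of which touched more than 1 gene. Only 1 region was present in all 16 libraries, 12 were present in at least 8, and 27 in a single library. Bcl11a was found in at least 2 libraries at 9 regions, 8 of which also had Spi1 in at least 2 WT-iMOS libraries. Spi1 was found in at least 2 libraries at 23 regions in WT-iMOS and at 36 in KO-iMOS, with 20 in both.

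**Figure D2:**
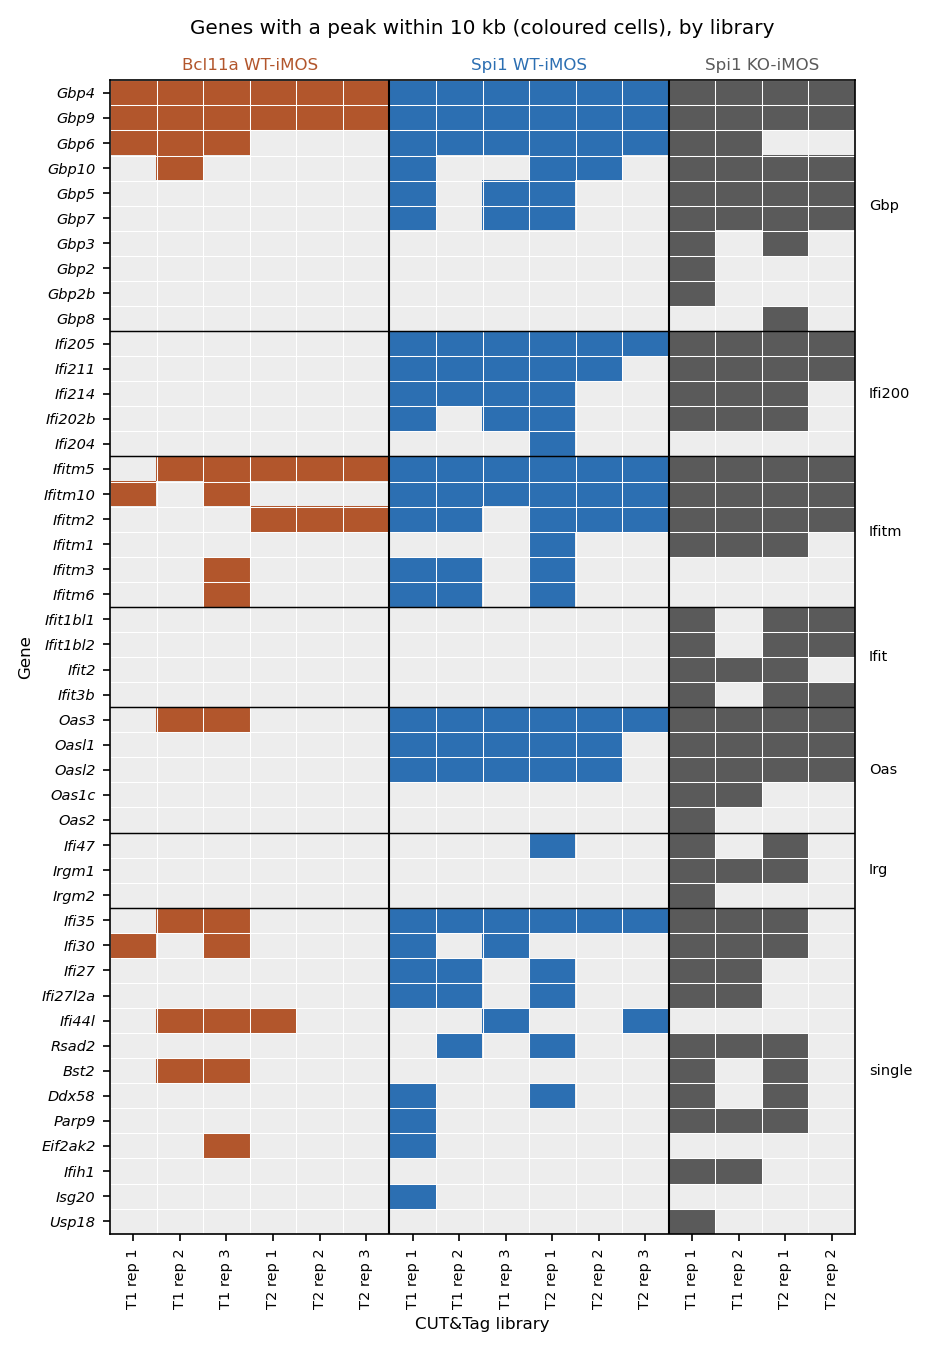
Rows are the 46 interferon-stimulated genes with a peak in any list, grouped by family, columns are the 16 libraries by T label and replicate number, and a coloured cell marks a peak within 10 kb of the gene. Gbp4 and Gbp9 are filled in all 16 libraries, and the Ifi200 rows are empty in all 6 Bcl11a libraries.

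The guanylate-binding proteins, GTPases that coat and disrupt the vacuoles of intracellular microbes, are encoded by 2 clusters on chromosomes 3 and 5. All 10 Gbp genes had a peak in some library; 3 were occupied by Bcl11a, 6 by Spi1 in WT-iMOS and 7 by Spi1 in KO-iMOS. Gbp9 and Gbp4 owed their place in all 16 libraries to a shared region, chr5:105109559-105110877, whose centre lies inside Gbp9. Its deposited fold enrichment ranged from 3.95 to 11.9, and its −log10 p stood at a median percentile of 86.4 within the lists.

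The same chromosome 5 cluster held regions that differed between groups. At Gbp4 itself, chr5:105139352-105140154 had Spi1 in 2 of 6 WT-iMOS libraries, both T2, and in 4 of 4 KO-iMOS libraries, and had no Bcl11a. At Gbp10, chr5:105244685-105245415 had Spi1 in 3 of 6 WT-iMOS and 4 of 4 KO-iMOS libraries. Gbp6 went the other way: chr5:105260682-105261640, 9062 bp from the gene, had Bcl11a in 3 of 3 T1 and 0 of 3 T2 libraries, Spi1 in 6 of 6 WT-iMOS libraries and Spi1 in 1 of 4 KO-iMOS libraries. The groups at this region overlapped for Spi1 in that 1 KO-iMOS T1 library, and Gbp6 had a further KO-iMOS peak inside the gene in 1 library. In the chromosome 3 cluster, chr3:142529807-142530792 spanned the start of Gbp7 and lay within 10 kb of Gbp5, with Spi1 in 3 of 6 WT-iMOS libraries and in 4 of 4 KO-iMOS libraries. Gbp3 had Spi1 at chr3:142560288-142560813, centred 194 bp inside the gene from its nearest start, in 2 of 4 KO-iMOS libraries, 1 at each T, and in 0 of 6 WT-iMOS libraries. Of those 2 peaks, the T1 peak overlapped a promoter window. Gbp2, Gbp2b and Gbp8 each had a peak in 1 KO-iMOS library, which for Gbp2 and Gbp2b was the same peak.

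**Figure D3:**
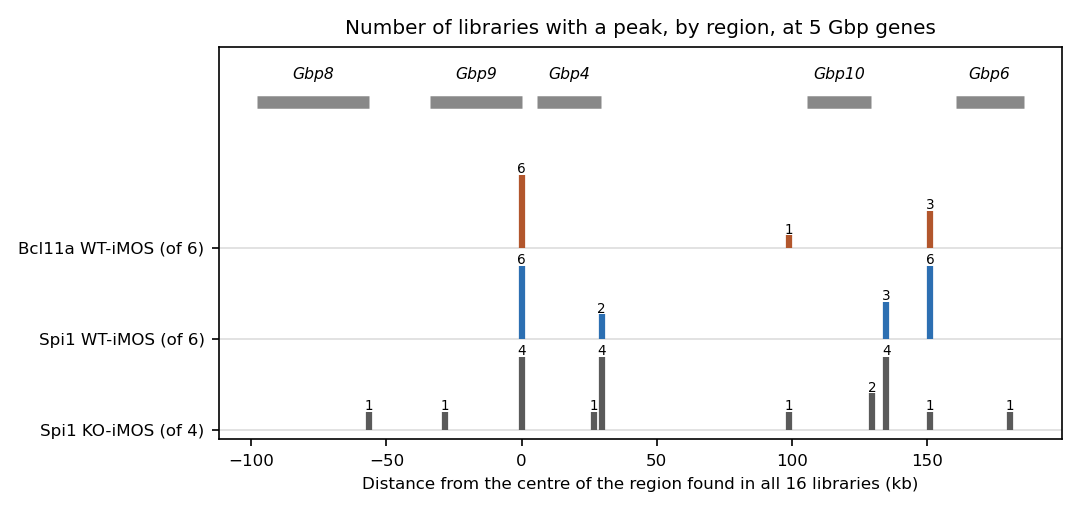
Gene bodies of the 5 Gbp genes of the chromosome 5 cluster (grey bars) and, below, the number of libraries with a peak in each region for the 3 sets of libraries; the horizontal axis is the distance in kb from the centre of the region found in all 16 libraries, and bar heights are shares of the 6, 6 and 4 libraries. The region beside Gbp6, at the right, carries 3 Bcl11a, 6 WT-iMOS Spi1 and 1 KO-iMOS Spi1 library.

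The Ifi200 genes of chromosome 1 encode sensors of DNA and regulators of transcription. None of the 11 was occupied by Bcl11a, which had no peak at any of them in any library, while Spi1 occupied 4 in WT-iMOS and 4 in KO-iMOS. Ifi205 had Spi1 in 6 of 6 WT-iMOS and 4 of 4 KO-iMOS libraries at chr1:174040728-174041437, outside the gene, and at chr1:174004487-174005120 in 5 of 6 and 4 of 4. The first of these regions is centred 9327 bp before the Ifi205 start and 851 bp from the start of the olfactory receptor gene Olfr433. Ifi211 had Spi1 in 5 of 6 WT-iMOS and 4 of 4 KO-iMOS libraries at chr1:173887041-173887831, and Ifi214 in 4 of 6 and 3 of 4 at chr1:173511440-173512073. These 2 regions lie 8508 bp outside Ifi211 and 9238 bp outside Ifi214. The Ifi211 region is centred 7249 bp from the start of the neighbour Mndal. Ifi202b had Spi1 in 3 of 6 and 3 of 4 libraries, and Ifi204 in 1 WT-iMOS library. Ifi203, Ifi206, Ifi207, Ifi208, Ifi209 and Ifi213 had no peak in any list.

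The Ifitm proteins sit in membranes and block the fusion of viruses with the cell. Of 7 genes, Bcl11a occupied 3, Spi1 occupied 5 in WT-iMOS and 4 in KO-iMOS, and Ifitm7 had no peak. Ifitm5, a bone-restricted member, had a peak in 15 libraries through 3 regions. One of these, chr7:140941279-140942223, had Bcl11a in 2 of 3 T1 and 0 of 3 T2 libraries and Spi1 in 6 of 6 WT-iMOS and 4 of 4 KO-iMOS libraries. Another, chr7:140953768-140954501, had no Bcl11a and had Spi1 in 4 of 6 WT-iMOS and 4 of 4 KO-iMOS libraries. The third, chr7:140946987-140947641, is shared with Ifitm2 and is described with the T labels. Ifitm10 had Spi1 inside the gene at chr7:142340264-142341034 in 6 of 6 WT-iMOS and 4 of 4 KO-iMOS libraries and Bcl11a there in 1 of 6. Ifitm3 and Ifitm6 each had Spi1 in 3 of 6 WT-iMOS libraries and in 0 of 4 KO-iMOS libraries, from regions they share. One of those, chr7:141016985-141017462, had Spi1 in 2 T1 libraries. Ifitm1 had Spi1 in 1 of 6 WT-iMOS and 3 of 4 KO-iMOS libraries.

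The 2′-5′ oligoadenylate synthetases make the messenger that activates RNase L. Of 11 Oas genes, 6 had no peak in any list (Oas1a, Oas1d, Oas1e, Oas1f, Oas1g and Oas1h), Bcl11a occupied 1, and Spi1 occupied 3 in WT-iMOS and 4 in KO-iMOS. Oas3 had Spi1 in all 10 of its libraries and Bcl11a in 2 of 3 T1 and 0 of 3 T2 libraries at chr5:120775236-120775903, inside the gene. Oasl1 and Oasl2, synthetase-like relatives, share chr5:114921763-114922645 between them, centred 1036 bp before the Oasl1 start, which had no Bcl11a and had Spi1 in 5 of 6 WT-iMOS and 4 of 4 KO-iMOS libraries. Its −log10 p stood at a median percentile of 92.9 in the lists that held it. Oas1c had Spi1 over its start in the 2 KO-iMOS T1 libraries and in no other list, and Oas2 had a peak in 1 KO-iMOS library.

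The Ifit proteins bind foreign RNA and block its translation. None of the 6 Ifit genes had a Bcl11a peak or a WT-iMOS Spi1 peak in any library, and Spi1 occupied 4 of the 6 in KO-iMOS. At Ifit2, chr19:34550629-34551115 began inside the gene at its start and had Spi1 in 2 KO-iMOS T1 libraries and 1 KO-iMOS T2 library. Ifit3b, Ifit1bl1 and Ifit1bl2 were counted through 1 region, chr19:34607367-34607862, centred 343 bp before the Ifit3b start, with Spi1 in 1 KO-iMOS T1 library and 2 KO-iMOS T2 libraries. That region ranked low, at a median percentile of 10.1 of −log10 p. Ifit1 and Ifit3 had no peak.

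Of the 4 immunity-related GTPases, which act on microbial vacuoles, Irgm1 and Ifi47 were occupied by Spi1 in KO-iMOS and none was occupied in WT-iMOS. Irgm1 had Spi1 in 2 KO-iMOS T1 libraries and 1 T2 library, and in no WT-iMOS library, at chr11:48872207-48872697, centred 1032 bp before its start. Ifi47 had Spi1 over its start, chr11:49076060-49076803, in 1 WT-iMOS and 2 KO-iMOS libraries. Irgm2 had a peak in 1 KO-iMOS library, and Iigp1 had none in the 16 lists. The Ifi47 window was 1 of 3 among the 50 with the PU.1 core GAGGAAGT (6%, against 3.64% of all windows), in capitals in the stretch chr11:49076413-49076472 on the plus strand, which is shown because this core is a known Spi1 recognition sequence.
Ifi47: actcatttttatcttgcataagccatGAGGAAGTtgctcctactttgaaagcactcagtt

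The other 16 genes act singly, among them sensors, ubiquitin-like modifiers and restriction factors. Bcl11a occupied 4, Spi1 occupied 7 in WT-iMOS and 9 in KO-iMOS, and Isg15, Ifi44 and Ifi27l2b had no peak. Ifi35 had Spi1 in 6 of 6 WT-iMOS and 3 of 4 KO-iMOS libraries and Bcl11a in 2 of 6, at chr11:101442142-101442715, which is centred 5984 bp before its start and 183 bp from the start of the ribosomal protein gene Rpl27. Ifi30, a lysosomal thiol reductase of antigen processing, had Bcl11a in 2 of 6 libraries and Spi1 in 2 of 6 WT-iMOS and 3 of 4 KO-iMOS libraries at chr8:70760842-70761470, 235 bp from the start of its neighbour Mpv17l2. Ifi44l, an antiviral gene of uncertain mechanism, had Bcl11a in 3 of 6 libraries and Spi1 in 2 of 6 WT-iMOS and 0 of 4 KO-iMOS libraries at chr3:151763245-151764189, 826 bp before its start. Bst2 (tetherin), which holds budding virus at the cell surface, was the 1 gene occupied by Bcl11a and not by WT-iMOS Spi1. Its Bcl11a region in 2 libraries, chr8:71542716-71543078, is centred 33 bp from the start of the neighbour Mvb12a, while KO-iMOS Spi1 lay over the Bst2 start in 2 libraries at chr8:71537257-71537826.

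The RNA sensor genes Ddx58 (RIG-I) and Ifih1 (MDA5) differed in where Spi1 lay. Ddx58 had Spi1 inside the gene in 2 of 6 WT-iMOS and 2 of 4 KO-iMOS libraries. Ifih1 had Spi1 over its start in the 2 KO-iMOS T1 libraries and in no other list. Rsad2 (viperin), which makes an antiviral nucleotide, had Spi1 in 2 of 6 WT-iMOS and 3 of 4 KO-iMOS libraries, and Parp9, a regulator of interferon signalling, in 1 of 6 and 3 of 4. Ifi27 and Ifi27l2a overlap each other and share a region with Spi1 in 3 WT-iMOS and 2 KO-iMOS libraries. That region, chr12:103425738-103426295, lies 7578 bp outside these genes and is centred 169 bp from the start of the neighbour Ddx24. Eif2ak2 (PKR), Isg20 and Usp18, a negative regulator of interferon signalling, had a peak in 2, 1 and 1 libraries.

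The first comparison asked which of these genes differ between Bcl11a and Spi1 within WT-iMOS, with 6 libraries each. Bcl11a was present in a smaller share of libraries than Spi1 at 26 of the 65 genes, in a larger share at 2 and in an equal share at 37. Spi1 without any Bcl11a described 12 of the 25 genes occupied by Spi1, and 10 were occupied by both. The share was lower for Bcl11a by at least 0.5 at 14 genes, where 7.91 would be at the length-matched rate and 12.3% of all genes were. The 14 include neighbours that share a region: Gbp5 with Gbp7, Oasl1 with Oasl2, and Ifi27 with Ifi27l2a. They are therefore not 14 separate sites, and the excess by gene is inflated to that extent. The share for Bcl11a was higher by at least 0.5 at 0 of the 65 genes, against 2.28% of all genes.

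Ifi205 differed completely, with no Bcl11a library out of 6 and all 6 Spi1 libraries positive (Fisher's exact test, two-sided p = 0.00216, Benjamini-Hochberg adjusted p = 0.162 over 21883 genes). Ifi211, Oasl1 and Oasl2 had 0 of 6 against 5 of 6 (Fisher's exact test, p = 0.0152, adjusted p = 0.387), with the latter pair resting on 1 region. These were the 4 of 65 genes with an unadjusted p under 0.05, all lower for Bcl11a; over all genes 3.64% were lower and 0.27% higher at that level. No gene of the genome passed the adjusted threshold of 0.05 by Fisher's exact test, and 948 genes with the smallest p of this design were needed for any call. At equal list length, the number lower by at least 0.5 was 7, beside 3.98 at the length-matched rate and 6.08% of all genes. The 7 again include Oasl1 with Oasl2 and Ifi27 with Ifi27l2a, each pair through a shared region. Ifi205, Oasl1 and Oasl2 each had 0 Bcl11a against 5 Spi1 libraries. Ifi211 then had 0 against 1 and Ifi214 0 against 2. With the summit required to lie inside the locus, the Oasl2 difference was −0.167. With gene bodies alone, the difference was 0 at Ifi205, Ifi211, Ifi214 and Oasl1 and −0.167 at Oasl2. The differences at these genes thus rested mainly on peaks in the 10 kb flanks. With lists of equal length, the number higher by at least 0.5 was 0, against 4.62% of all genes.

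The second comparison was Spi1 in KO-iMOS against WT-iMOS, with 4 and 6 libraries. Spi1 was present in a larger share of KO-iMOS libraries at 30 genes, in a smaller share at 8 and in an equal share at 27. It was higher by at least 0.5 at 14 genes, near the 15.3 at the length-matched rate, and at 22.5% of all genes. It was lower by at least 0.5 at 3 genes (Gbp6, Ifitm3 and Ifitm6, the latter pair through shared regions), where 0.904 would be at the length-matched rate and 2.12% of all genes were. Ifit2, Irgm1, Ifit3b, Ifit1bl1 and Ifit1bl2 had Spi1 in 3 KO-iMOS libraries out of 4 and in none of the 6 from WT-iMOS (Fisher's exact test, p = 0.0333, adjusted p = 0.487), and 8.36% of all genes were higher at an unadjusted p under 0.05. No gene of the set was lower at that level, against 0.887% of all genes. Irgm1 and Ifit2 were each absent from KO-iMOS T2 replicate 2, whose list was the shortest of the 4.

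Next in size came Ifitm1 and Parp9, with 3 of 4 against 1 of 6, then Gbp5 and Gbp10, with 4 of 4 against 3 of 6, and Bst2 and Gbp3, with 2 of 4 against 0 of 6. Gbp7, Ifih1 and Oas1c also differed by 0.5. No gene passed the adjusted threshold (smallest adjusted p = 0.264 by Fisher's exact test; 1829 genes higher and 194 lower at an unadjusted p under 0.05), and 2085 genes with the smallest p were needed for any call. Of the 4 KO-iMOS lists, 3 were longer than any WT-iMOS Spi1 list, and with lists of equal length the number of these genes higher in KO-iMOS by at least 0.5 was 2, beside 2.55 at the length-matched rate and 4.08% of all genes. The number lower by at least 0.5 was then 4, beside 1.32 at the length-matched rate and 2.48% of all genes, so that 14 higher and 3 lower on whole lists became 2 higher and 4 lower. The 4 were Oas3, with 1 of 4 KO-iMOS against 5 of 6 WT-iMOS libraries, and Ifi35, Ifi27 and Ifi27l2a, with 0 of 4 against 3 of 6. Ifi27 and Ifi27l2a were counted through 1 shared region, so the 4 are not separate sites. Gbp6, Ifitm3 and Ifitm6 were not among them. The difference was 0 at Ifit2, Irgm1, Ifit3b, Ifit1bl1, Ifit1bl2, Ifitm1, Parp9, Bst2, Gbp3 and Gbp5, which had no peak among the 2605 strongest of any Spi1 library. Gbp10 and Ifi211 were then the genes with the greater KO-iMOS presence, Gbp10 in 4 of 4 against 2 of 6 and Ifi211 in 4 of 4 against 1 of 6 libraries. Binding and list length therefore cannot be told apart for the Ifit and Irgm1 peaks.

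Regions were also counted once each. Of 19529 Spi1 regions found in at least 2 of the 10 libraries, 39 lay at these genes. The share of libraries was higher in KO-iMOS by at least 0.5 at 17 of the 39 (43.6%), against 42.7% of all regions, and lower at 1 (2.56%), against 10.3%. The higher share was thus near that of all regions, and the lower share was below it, whereas by gene the lower number was above its length-matched rate. That 1 was the region beside Gbp6, with 1 of 4 against 6 of 6 libraries (Fisher's exact test, p = 0.0333, adjusted p = 0.231). The regions at Irgm1, Ifit2 and Ifit3b had the same p in the other direction, and no region of the genome passed the adjusted threshold (smallest adjusted p = 0.107 by Fisher's exact test; 3004 higher and 762 lower at an unadjusted p under 0.05).

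The regions with Spi1 in at least 2 KO-iMOS libraries but fewer than 2 WT-iMOS libraries lay closer to gene starts than those with at least 2 of each. Where the start of the interferon-stimulated gene was known, 8 of 14 of the former were within 1 kb of it (median distance 268.5 bp) and 2 of 16 of the latter (median 5746 bp). A further 2 regions of the former class and 4 of the latter had no known start and were left out. Among these, a region at Gbp10 in the former class and regions at Gbp9 and Gbp4 in the latter crossed a gene end. The 8 lay at Bst2, Oas1c, Ifih1, Ifitm1, Ifi47, Ifit2, Gbp3 and Ifit3b. Measured to the nearest start of any gene, 64.3% and 31.3% were within 1 kb, against 48.7% and 42.8% of regions of the same classes over all genes. The numbers are small and no test was made. Bcl11a regions were 1 of 7 within 1 kb of the start of an interferon-stimulated gene. Within 1 kb of any start they were 4 of 7 (57.1%), near the 47.2% of 3891 Bcl11a regions over all genes.

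**Figure D4:**
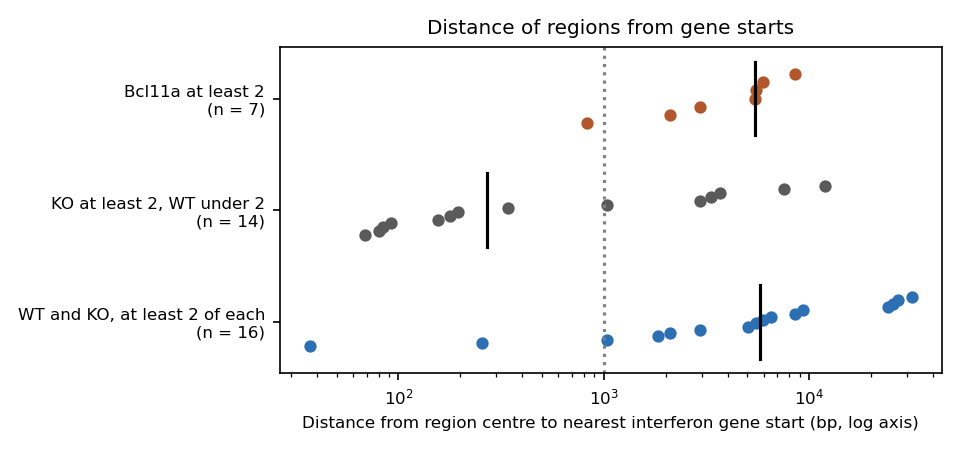
Each point is a distinct region at those interferon-stimulated genes whose start is known. It is placed by the distance from its centre to the nearest of these starts on a log axis. Black lines mark the medians and a dotted line marks 1 kb. Regions with KO-iMOS Spi1 in at least 2 libraries and fewer than 2 WT-iMOS libraries have a median of 268.5 bp, and those with at least 2 of each a median of 5746 bp; the Bcl11a class can share regions with the others.

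Peaks over the 50 available promoter windows were scarce. Genes without a window could not be scored. They include all 5 Gbp genes of chromosome 5, where the region found in all 16 libraries crosses an end of Gbp9. Bcl11a occupied 0 of the 50 windows, against 9.99% of 17491 windows, with a single peak in 1 library, at Ifitm6. Spi1 occupied 2 in WT-iMOS (4%, against 11.2%), those of Gbp7 and Ifi35, and 9 in KO-iMOS (18%, against 26.3%). The response element core had 47 matches in the 32 windows that held it. Bcl11a peaks covered 0 of the 47, WT-iMOS Spi1 peaks covered 1, the Gbp7 match shown above, in 3 libraries, and KO-iMOS Spi1 peaks covered 7 in 5 genes. Those 5 were Gbp7 in 4 libraries, Bst2, Ifih1 and Ifit3b in 2 each and Irgm2 in 1.

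**Figure D5:**
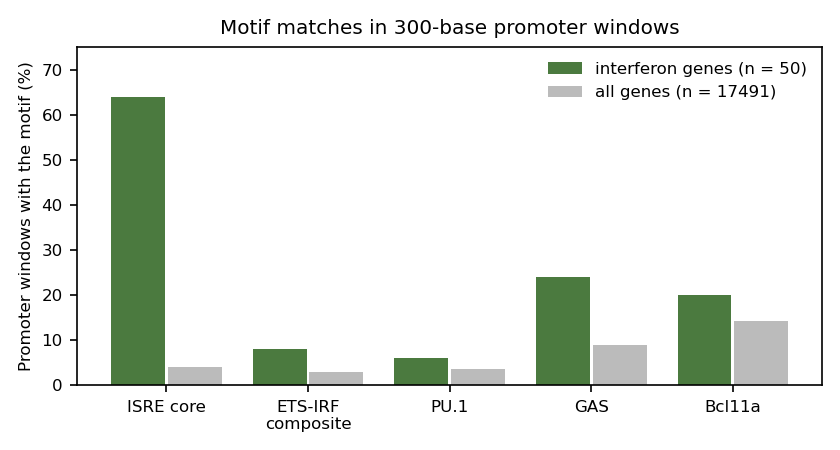
Bars give the percentage of 300-base promoter windows with at least 1 match to each motif on either strand, for the 50 interferon-stimulated genes with a window (green) and for all 17491 protein-coding genes with one (grey). The response element core is at 64% and 3.94%, and the other motifs differ less.

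Among the 32 genes with a response element core, 10 had no peak of either factor in any list: Ifi203, Ifi206, Ifi207, Ifi208, Ifi213, Ifit1, Ifit3, Isg15, Oas1a and Oas1g. The gamma-activated site TTCNNNGAA was found in 12 of 50 windows (24%, against 8.92% of all). The ETS-IRF composite, which is GGAA, any 2 bases and GAAA and joins a Spi1-type to an interferon regulatory factor site, was found in 4 (8%, against 2.98%) and the Bcl11a core TGACCA in 10 (20%, against 14.3%). Both strands were searched and matches to different motifs may overlap. A match is a description of the letters in the window and no evidence of binding.

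The third comparison was T2 against T1 within each target and genotype. Bcl11a occupied 10 genes at T1 (21.9% of all genes were occupied) and 4 at T2 (9.46%), beside 13.5 and 5.07 at length-matched rates. With 2 libraries still required, the T1 number was 3 without T1 replicate 3, below the 4 at T2, and 5 without T1 replicate 2. Spi1 in WT-iMOS occupied 21 at T1 (24.5%) and 13 at T2 (22.6%), beside 14.6 and 13.4, and without T1 replicate 1 the T1 number was 12, below the 13 at T2. In KO-iMOS it occupied 27 at T1 (40.9%) and 16 at T2 (24.1%), beside 26.3 and 15.1. List lengths of T1 and T2 overlapped in each case, with the longest list of Bcl11a and of KO-iMOS Spi1 at T1. For Bcl11a the share was lower at T2 by at least 0.5 at 6 genes (7.54 at the length-matched rate, 11.3% of all genes) and higher at 1 (0.736% of all genes). For Spi1 in KO-iMOS it was lower at 19 genes (17.5 at the length-matched rate, 26.3% of all) and higher at 4 (4.44% of all). In WT-iMOS, Spi1 was lower at T2 by that amount at 2 genes (3.17% of all) and higher at 0 (2.01%). Fisher's exact test cannot go below p = 0.1 with 3 against 3 libraries, and its floor is higher with 2 against 2, so it could call no gene. No gene of the genome had even an unadjusted p under 0.05 in these 3 comparisons.

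Complete differences by T were nevertheless seen at single genes, at the smallest p of each comparison. The share of all genes that differ completely was not counted. The genes named here are therefore a description and cannot be set apart from the background of all genes. Gbp6 had Bcl11a in 3 of 3 T1 and 0 of 3 T2 libraries at the region beside it, where WT-iMOS Spi1 was in all 6. By gene, Gbp6 also had Spi1 in 2 of 2 KO-iMOS T1 and 0 of 2 KO-iMOS T2 libraries. Those 2 came from different regions, the one beside the gene in 1 library and one inside it in the other. No single region there differed completely by T in KO-iMOS. Ifih1, Oas1c and the region shared by Ifi27 and Ifi27l2a had KO-iMOS Spi1 in both T1 libraries and in neither T2 library. Ifitm2 went the other way, with Bcl11a in 0 of 3 T1 and 3 of 3 T2 libraries although 2 of those 3 T2 lists were the shortest of the 16. The region behind it, chr7:140946987-140947641, was singled out after its values were seen. It had Bcl11a in all 3 T2 libraries, Spi1 in all 3 WT-iMOS T2 libraries and neither factor in any of the 6 WT-iMOS T1 libraries. In KO-iMOS, Spi1 was there in 2 of 2 T1 and 1 of 2 T2 libraries. Over the genome, 4 of 13637 regions found in at least 2 WT-iMOS libraries were in every T2 and no T1 library (0.0293%), and 6 were in every T1 and no T2 library, none of them at these genes. The region is centred 2929 bp from the start of Ifitm5, and with lists of equal length Ifitm2 had Bcl11a in the same 3 T2 libraries and in no T1 library.

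A list of 52 other genes of the interferon system was examined, all found in the annotation. It mixes receptors, kinases and transcription factors of the signal with further genes of the response, such as Samhd1, Herc6, Pml, Tap1 and Psmb8. Its shares therefore do not describe signalling genes alone. Bcl11a occupied 19 of them (36.5%, against 25.4% of all genes), Spi1 30 in WT-iMOS (57.7%, against 33.5%) and 39 in KO-iMOS (75%, against 49.8%). The receptor genes Ifnar1, Ifnar2 and Ifngr1 had Spi1 in all 10 libraries and Bcl11a in 5, 6 and 6 of 6. Among the transcription factors of the response, Irf1 had Spi1 in all 10 libraries and Bcl11a in 5 of 6, whereas Stat2 had Spi1 in 1 KO-iMOS library and no WT-iMOS peak. In KO-iMOS against WT-iMOS, 11 of the 52 were higher by at least 0.5, against 22.5% of all genes, and 0 lower, against 2.12%. None passed the adjusted threshold, and 2 were higher at an unadjusted p under 0.05, against 8.36% of all genes: Irf8 with 3 of 4 against 0 of 6 and Trim30a with 4 of 4 against 1 of 6 (Fisher's exact test, p = 0.0333 and 0.0476). The genes outside the set whose presence best followed its count across the 16 libraries were Anapc4, Arpc5l, Atp6v0e, Bicral and Borcs7, tied at Pearson's r = 0.870 and each with a peak in 5 libraries.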

How the data were processed

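For each of the 16 CUT&Tag libraries the authors deposited 1 narrowPeak list, that is, peaks called on single libraries. The submitters' processing notes name Bowtie2, SAMtools and MACS2, and the genome build mm10, with no version or role. Besides positions, the deposited columns are a whole-number score, the fold enrichment (a ratio to local background) and −log10 values of p and q. All are the authors' values, and served only for ranking and filtering inside each list. Depth and any control sample are not given in the sources used here.

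Peaks on assembled chromosomes were joined to 21883 protein-coding genes (body with 10 kb on either side, 1 bp overlap) with Python 3.11.15, numpy 2.4.6, pandas 2.3.3, scipy 1.17.1 and matplotlib 3.10.9. Presence was compared by two-sided Fisher's exact test, adjusted by Benjamini-Hochberg over all genes or all merged regions, with a threshold of 0.05. Length-matched values weight the shares of all genes in 10 deciles of locus length by the set's own deciles. The overlap counting and the test were run on simulated data.

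The genes, the lists and the rules were chosen with earlier results of these data known. Genes are named by rule: up to 10 in most libraries, those with Bcl11a in at least 3 of 6, those with Spi1 in at least 4 of 6 WT-iMOS libraries without Bcl11a, and those whose share differs by at least 0.5 between genotypes (up to 12) or by 1 between T1 and T2. Others are named to complete a family. Alternatives were lists of equal length, a −log10 q of at least 5, narrower gene windows, summits, peaks within 500 bp merged, at least 3 libraries, a replicate block and leaving out each library.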

Additional observations from a re-analysis of the deposited data

Results flagged for a closer look

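Lone values in groups of 4 or 6 libraries were sought in 15 sets of numbers with Dixon's criterion at the 95% level, and chance alone marks about 1 set in 20. Bcl11a WT-iMOS T1 replicate 3 was the Bcl11a library with a peak over the promoter window of 1 of the 50 genes, against 0 in the others. Because the others are tied at 0, any single different value would be marked, so this mark carries no weight. Among Spi1 WT-iMOS libraries, T1 replicate 3 had 1.25 times the length-matched number of peaks per locus, apart from the other 5.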

How the results depend on the processing

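No gene or region passed the adjusted threshold under any setting run, but some of the tests could call none. Such were T2 against T1 under every setting, and the replicate block for KO-iMOS against WT-iMOS. With lists of equal length, occupied genes numbered 7 (Bcl11a), 14 (WT-iMOS Spi1) and 10 (KO-iMOS Spi1), Spi1 regions 12 and 9, and genes differing by at least 0.5 were 7 lower for Bcl11a than Spi1, and 2 higher and 4 lower in KO-iMOS. Within gene bodies the numbers were 3, 8 and 17 genes (8.72, 11.6 and 22.3 at length-matched rates) and 2, 8 and 18 regions. There, 4 genes were lower for Bcl11a (4.81 at the length-matched rate), and 9 higher (12.3) and 0 lower (0.591) in KO-iMOS. The Gbp6 difference between KO-iMOS and WT-iMOS reversed to 0.25, since the region beside it lies outside the gene. Within 1 kb of a gene boundary they were 2, 8 and 16 genes (7.80, 9.49 and 19.8) and 2, 8 and 16 regions. Here 3 genes were lower for Bcl11a (4.01) and 0 lower in KO-iMOS (0.157). In both settings all 3 numbers of occupied genes were below their length-matched rates. Fewer peaks enter each of these settings by construction. A −log10 q of at least 5 left 1 gene lower in KO-iMOS, and requiring 3 libraries left 6 for Bcl11a.

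Leaving out 1 library at a time gave 6 to 11 genes and 4 to 9 regions for Bcl11a (fewest without T1 replicate 3; 5 regions without T1 replicate 2), 3 to 8 genes for Bcl11a at T1 (10 with all 3 libraries), 12 to 17 genes for WT-iMOS Spi1 at T1 (21 with all 3), 23 to 36 regions for KO-iMOS Spi1 (fewest without T1 replicate 1), 9 to 16 genes lower for Bcl11a (fewest without Spi1 WT-iMOS replicate 1 of T1 or of T2) and 1 to 3 lower in KO-iMOS (fewest without Spi1 WT-iMOS T1 replicate 1 or 2 or T2 replicate 1).

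Same-numbered libraries did not deviate together in every pair (correlations of −0.162 to 0.258), so replicate numbers were not taken as pairs. With the replicate block, 0 genes and 0 regions were called, and 14 genes were lower for Bcl11a and 14 higher and 3 lower in KO-iMOS. Without read counts, an absent peak cannot be told from a shallow library.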

Other observations

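Relatives of these genes that the annotation lists as pseudogenes were left out of the set. Mx2, a relative of the antiviral Mx GTPases, had Spi1 within 10 kb in 1 of 6 WT-iMOS and 3 of 4 KO-iMOS libraries, while Mx1 had no peak in any list. Gbp11 had Spi1 in 2 WT-iMOS and 2 KO-iMOS libraries, Oas1b in 2 KO-iMOS libraries and Ifi203-ps in 1 WT-iMOS library, and Gbp2-ps had none. Bcl11a had no peak at any of the 6.

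Several other genes of the response had Spi1 in all 6 WT-iMOS and all 4 KO-iMOS libraries: Irf2 and Tgtp1 without any Bcl11a, Tap1 with Bcl11a in 6 of 6, and Trim25 and Pml with Bcl11a in 1 of 6. Adar, Cxcl10, Tlr7 and Xaf1 had no peak in any list.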
